A study of Homo sapiens with 40 samples.

Results

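Combined treatment was set against decitabine alone in 786-0 cells, a clear cell renal cell carcinoma line, with SETD2 intact (WT), at day 26. The comparison takes 4 of the series' 40 libraries, chosen by their labels: 2 libraries of cells given 100 nM DAC with 10 nM BMN, and 2 libraries of cells given 100 nM DAC without BMN. DAC is decitabine, a cytidine analogue that traps DNA methyltransferases and removes DNA methylation, and BMN is BMN673 (talazoparib), an inhibitor of poly(ADP-ribose) polymerases. All 4 libraries carry DAC, so the labelled difference between the 2 arms is the addition of BMN. If each arm was 1 culture, a difference between cultures cannot be told apart from that addition. The other groups of the series are the same treatments at days 5 and 16, BMN alone, untreated cells at day 0, and the same set in a SETD2 knockout (KO) line, with 2 libraries in each of 20 groups. The labels give the day and the doses but not the dosing schedule, whether the libraries of a group came from separate cultures, or whether the KO line is 1 clone, so p-values measure only the spread between these libraries, which may be technical.

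Removal of DNA methylation is known to release silenced genes, among them germline genes and retroviral sequences, and double-stranded RNA from such sequences can be read by cytosolic sensors that switch on interferon-stimulated genes. PARP inhibitors hold PARP1 on DNA breaks and stall replication, and damaged DNA can feed the same interferon response as well as p53 and the inflammatory factor NF-kB. SETD2 is the methyltransferase that places trimethylation on lysine 36 of histone H3 and is often mutated in kidney cancer.

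The 4 libraries held between 20553754 and 22631101 counts, within a series range of 17833960 to 22631101. Across genes, log2 CPM (counts scaled to a common library size) correlated at 0.988 between the 2 DAC+BMN libraries and at 0.987 between the 2 DAC libraries, against 0.981 to 0.984 between libraries of different treatment. All 10 markers of a renal carcinoma line were detected, with a summed level of 6800 and 7447 CPM in DAC+BMN and 6113 and 6639 CPM in DAC. Of 12 blood cell markers, CD3E, MS4A1, HBB and HBA1 were at 0 in all 4 libraries, and the whole list summed to 2.85 and 3.71 CPM in DAC+BMN and 4.81 and 5.24 CPM in DAC. Endothelial markers summed to 3.97 and 4.24 CPM in DAC+BMN and 2.10 and 2.19 CPM in DAC, with CLDN5 and EMCN at 0. Fibroblast markers summed to 1616 and 1983 CPM in DAC+BMN and 1232 and 1596 CPM in DAC, nearly all of it COL1A1. Of these 8 markers, 7 had at least 3 counts in all 4 libraries and PDGFRA was at 0. In DAC+BMN, PDGFRB had 37.2 and 38.3 CPM, THY1 36.1 and 41.0 CPM, and LUM 20.4 and 20.9 CPM. In the edgeR test given below, KDR (13 and 13 counts in DAC+BMN, 1 and 1 in DAC) and COL1A1 were higher. ITGAM and THY1 were lower. ITGAM did not pass in DESeq2, and neither ITGAM nor COL1A1 passed in an edgeR fit on these 4 libraries alone. SETD2 transcript ranged from 113.5 to 179.9 CPM over the 20 WT libraries and from 107.6 to 160.5 CPM over the 20 KO libraries, so its level did not separate the lines, and whether a deletion leaves the transcript in place was not tested. In the 4 libraries SETD2 stood at 154 and 157 CPM in DAC+BMN and 157 and 156 CPM in DAC.

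Adding BMN to DAC changed 2746 of 22527 tested genes at day 26 (12.2%) at an adjusted p below 0.05 in edgeR's quasi-likelihood test. Of these, 1141 were higher (5.07%) and 1605 lower (7.12%), and 273 (1.21%) and 348 (1.54%) of them were at least 2-fold higher and lower. The 5.07% and 7.12% are the background for the counts of list members in this comparison below. Among the listed groups, interferon-stimulated genes, antigen presentation genes, ERK feedback genes and several cytokines were higher, while sterol and fatty acid synthesis genes and renal tubule genes were lower. Of the drug targets, PARP1 and DNMT1 did not pass, while DNMT3A and DNMT3B, given with the DNA methylation genes, fell. PARP1 had 271 and 271 CPM in DAC+BMN and 287 and 309 CPM in DAC (log2 fold change -0.14 ± 0.07 SE, adjusted p = 0.229), and DNMT1 had 307 and 334 CPM in DAC+BMN and 301 and 340 CPM in DAC (adjusted p = 0.9996). PARP2 had 41.1 and 41.8 CPM in DAC+BMN and 35.7 and 32.2 CPM in DAC (log2 fold change 0.29 ± 0.10 SE, adjusted p = 0.0626), and it passed on RLE size factors and in DESeq2. The spread behind these calls was shared over all 40 libraries. In a fit on the 4 libraries alone, which has 2 libraries a group to judge the spread by, 325 genes were higher and 387 lower. That fit left the count of interferon-stimulated and renal tubule genes within 1.5 times of the values below, and lowered the count of many other lists by more. Bulk RNA cannot tell fewer cells that express a gene from less RNA per cell.

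**Figure D1:**
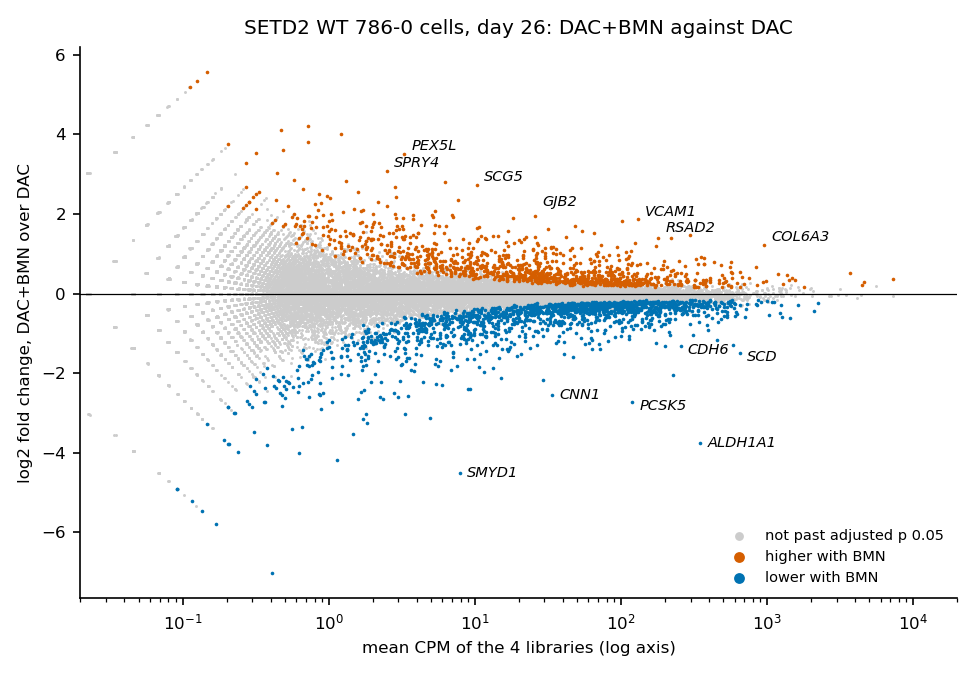
Each point is 1 of 22527 genes in WT cells at day 26, with the mean CPM of the 4 libraries on a log axis and the log2 fold change of DAC+BMN over DAC on the vertical axis; orange genes were higher and blue genes lower at an adjusted p below 0.05. ALDH1A1 and PCSK5 lie lowest among well expressed genes, and RSAD2, VCAM1 and COL6A3 stand among the higher ones.

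Interferon-stimulated genes were higher with DAC+BMN. Of 50 genes on the list, 42 rose and none fell, with a median log2 fold change of 0.56 against -0.01 over all tested genes. All 50 had a positive log2 fold change, and the 8 that did not pass the test were DDX60, DDX60L, SAMD9, IFITM2, HELZ2, LGALS3BP, CXCL10 and CXCL11. IFITM1, IFITM2 and IFITM3 are near-identical copies whose reads the counting could split, so their values are uncertain.

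RSAD2, which makes the antiviral protein viperin, had 255 and 269 CPM in DAC+BMN and 100.3 and 98.3 CPM in DAC (log2 fold change 1.40 ± 0.11 SE, adjusted p = 1.49e-11). IFIT3, a component of the IFIT complex that binds foreign RNA, had 459 and 469 CPM in DAC+BMN and 249.9 and 239.8 CPM in DAC (log2 fold change 0.92 ± 0.07 SE, adjusted p = 6.75e-12). IFIT2, its partner in that complex, had 126 and 128 CPM in DAC+BMN and 66.8 and 63.0 CPM in DAC (log2 fold change 0.97 ± 0.07 SE). The libraries of the 2 treatments did not overlap for any of the 3 genes. These genes were chosen by smallest p in this comparison, so the separation adds no support. MX2, an antiviral GTPase, had 255 and 247 CPM in DAC+BMN and 141 and 145 CPM in DAC (log2 fold change 0.81 ± 0.07 SE). OAS2, which makes the second messenger that activates RNase L, had 481 and 481 CPM in DAC+BMN and 255 and 262 CPM in DAC (log2 fold change 0.90 ± 0.08 SE). At the low end of the list, DTX3L had a log2 fold change of 0.19 and PARP14 of 0.23, and RSAD2 had the largest of the list.

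The upstream 250 bases of 3 of these genes are shown, with matches to the letters of the interferon-stimulated response element marked. Interferon-activated transcription factors read this element. Sequences are from RefSeq on GRCh38.p14, given 5′ to 3′ on the gene's strand and ending at the base before the RefSeq gene start. Capitals mark matches to GAAANNGAAA or its reverse complement TTTCNNTTTC. The annotation used for counting begins IFIT3 at base 89327307 and RSAD2 at base 6865557, so both windows lie inside those counted genes. IFIT3 lies on the plus strand at chr10:89327747-89327996 with matches that begin 156 and 122 bases before the start, IFIH1 on the minus strand at chr2:162318685-162318934 with 3 matches of which the first 2 overlap each other, and RSAD2 on the plus strand at chr2:6865635-6865884 with none.
IFIT3: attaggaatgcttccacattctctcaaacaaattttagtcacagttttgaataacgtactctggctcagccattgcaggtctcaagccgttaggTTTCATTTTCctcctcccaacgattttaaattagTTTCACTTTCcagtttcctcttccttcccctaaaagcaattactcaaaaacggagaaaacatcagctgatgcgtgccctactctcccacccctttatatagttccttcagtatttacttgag
IFIH1: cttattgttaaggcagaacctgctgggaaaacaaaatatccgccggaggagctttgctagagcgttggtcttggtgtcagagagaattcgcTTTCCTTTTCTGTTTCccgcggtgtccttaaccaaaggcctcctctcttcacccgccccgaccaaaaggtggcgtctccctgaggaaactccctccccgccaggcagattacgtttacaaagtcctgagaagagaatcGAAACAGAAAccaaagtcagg
RSAD2: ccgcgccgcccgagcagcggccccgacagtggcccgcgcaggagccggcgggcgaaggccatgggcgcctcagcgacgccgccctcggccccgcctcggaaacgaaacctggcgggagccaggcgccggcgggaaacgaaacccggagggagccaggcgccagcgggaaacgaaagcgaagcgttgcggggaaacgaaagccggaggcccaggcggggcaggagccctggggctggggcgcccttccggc
Of the 50 listed genes, 42 had a window in the table, and 25 of those 42 (59.5%) held the letters on either strand, against 839 of all 27305 windows (3.07%). None of 27 windows of sterol and fatty acid genes and none of 28 windows of growth factor feedback genes held them. At the 3.07% of all windows, lists of this size would hold few or none. A match describes the letters and not a bound site. The absence of a match in RSAD2 says only that these letters are not in this window. The RSAD2 window does hold GAAACGAAA, whose spacing is shorter than the pattern takes. Whether that window is the promoter in use was not tested.

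Among sensors and interferon signalling genes, 8 of 32 tested rose (background 5.07%) and 3 fell (background 7.12%), and 2 rose in the fit on the 4 libraries alone. The RNA sensor IFIH1 (MDA5) had 143 and 150 CPM in DAC+BMN and 99.3 and 79.5 CPM in DAC (log2 fold change 0.71 ± 0.10 SE, adjusted p = 4.67e-06). The related sensor RIGI had 16.2 and 13.0 CPM in DAC+BMN and 8.08 and 8.24 CPM in DAC (log2 fold change 0.84 ± 0.19 SE). STAT2, the transcription factor subunit shared by type I and type III interferon signalling, had 217 and 227 CPM in DAC+BMN and 166 and 177 CPM in DAC (log2 fold change 0.37 ± 0.06 SE). The 3 that fell were the kinase JAK1 (387 and 397 CPM in DAC+BMN, 519 and 507 CPM in DAC), the adaptor MAVS that relays signals from RIGI and IFIH1 (169 and 179 CPM in DAC+BMN, 203 and 237 CPM in DAC), and the receptor subunit IFNGR2 (log2 fold change -0.26). Genes for the interferons IFNB1, IFNL1, IFNL2 and IFNL3 had too few counts to be tested.

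Of 22 MHC class I pathway genes, which load peptides for display to T cells, 13 rose and none fell, with a median log2 fold change of 0.32. The fit on the 4 libraries alone called 4 of them. B2M, the light chain of MHC class I, had 1559 and 1628 CPM in DAC+BMN and 1216 and 1099 CPM in DAC (log2 fold change 0.46 ± 0.06 SE, adjusted p = 1.84e-07). TAP1, a subunit of the peptide transporter, had 263 and 287 CPM in DAC+BMN and 174 and 192 CPM in DAC (log2 fold change 0.59 ± 0.09 SE). NLRC5, the transactivator of MHC class I genes, had 78.8 and 85.0 CPM in DAC+BMN and 53.9 and 64.4 CPM in DAC (log2 fold change 0.47 ± 0.10 SE). HLA-B, HLA-C, HLA-E and HLA-F rose by 0.32 to 0.54 on the log2 scale, while HLA-G (0.84) did not pass. HLA genes are similar enough that reads may be split among them.

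For interferon-stimulated genes the direction differed between the lines. At day 26 in KO cells the addition of BMN to DAC lowered 46 of 50 members and raised none (median log2 fold change -0.96), and in a direct test of WT minus KO 48 of 50 had a higher effect in WT (background 9.51%) and none a lower one. IFIT3 had 459 and 469 CPM in WT DAC+BMN and 249.9 and 239.8 CPM in WT DAC, while in KO cells it had 126 and 129 CPM in DAC+BMN and 272 and 278 CPM in DAC, and the difference of the effects was 2.03 ± 0.10 SE on the log2 scale (adjusted p = 1.31e-16). Thus the addition of BMN went with a higher IFIT3 level in WT cells and a lower one in KO cells. RSAD2 had 9.30 and 11.1 CPM in KO DAC+BMN and 40.7 and 39.5 CPM in KO DAC, and its effect differed between the lines by 3.38 ± 0.17 SE on the log2 scale (adjusted p = 5.3e-16). Untreated WT cells had 0.101 and 0.466 CPM of RSAD2, and untreated KO cells had none counted. In MHC class I genes 12 of 22 had a higher effect in WT and none a lower one.

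In WT cells the interferon-stimulated genes were above DAC alone at every day sampled. At day 5, 49 of 50 rose (background 6.77%, median log2 fold change 1.64), at day 16, 28 rose (background 5.04%) and 1 fell (median 0.32), and at day 26, 42 rose (median 0.56). RSAD2 had 43.1 and 39.5 CPM with DAC+BMN and 5.28 and 6.41 CPM with DAC at day 5, 204 and 214 CPM with DAC+BMN and 94.3 and 98.4 CPM with DAC at day 16, and the values above at day 26. Its level thus went up in both arms while the ratio between them was smaller at the later days. The effect at day 26 was lower than at day 5 in 45 of 50 members (background 4.78%), and it was higher than at day 16 in 9 (background 1.55%). The count against day 16 was 4 without replicate 1 of DAC at day 16, 5 without DAC+BMN replicate 2 of day 26 or of day 16, and 3 in the fit on the compared libraries alone. Without that DAC library 17 rather than 28 genes rose at day 16 itself. BMN alone at day 26 left RSAD2 at 0.496 and 0.413 CPM, against those 0.101 and 0.466 CPM in untreated WT cells.

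**Figure D2:**
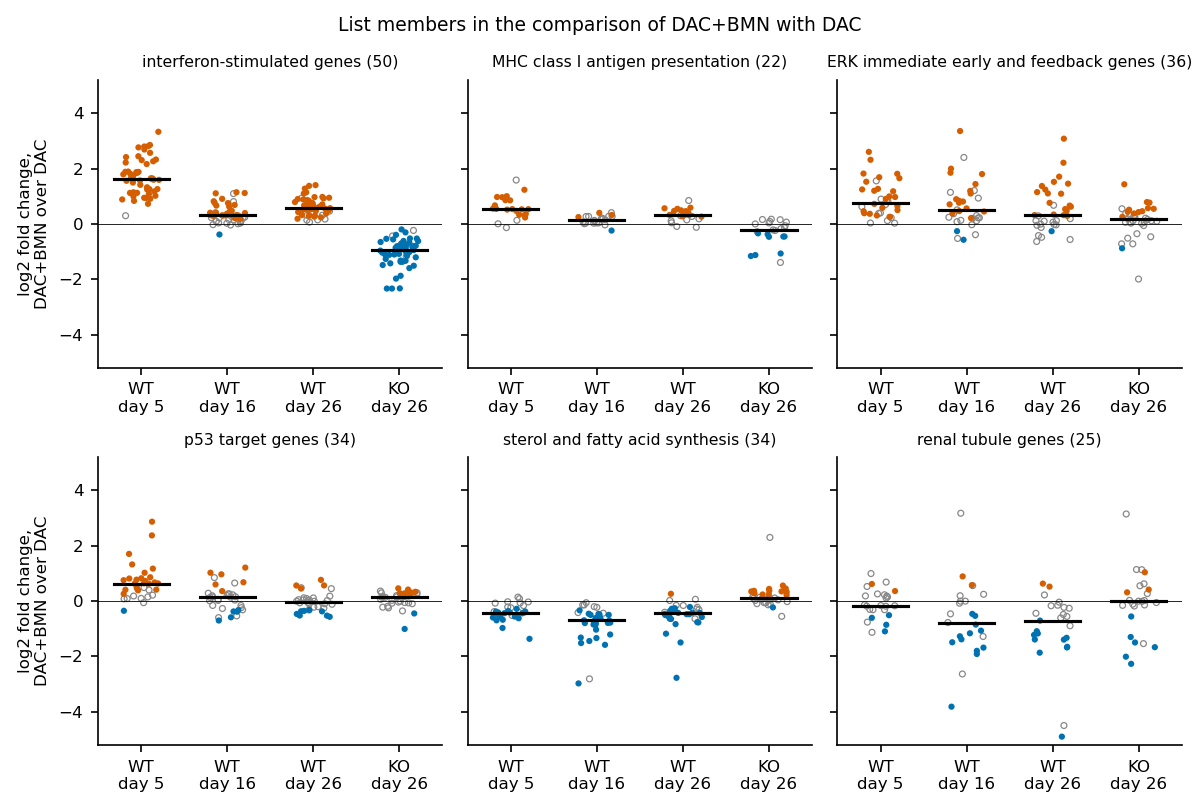
Points are tested genes of 6 lists (number in brackets), placed by the log2 fold change of DAC+BMN over DAC in WT cells at days 5, 16 and 26 and in KO cells at day 26; filled orange points were higher and filled blue points lower at an adjusted p below 0.05, open points did not pass, and bars are medians. Interferon-stimulated genes lie above 0 in WT cells at day 26 with a median of 0.56 and below 0 in KO cells with a median of -0.96.

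Inflammatory genes changed in both directions. Of 39 cytokines and NF-kB targets, 12 rose and 6 fell at day 26, while 32 rose at day 5 and 24 at day 16. The effect at day 26 was lower than at day 5 in 20 genes and higher in 2 (background 1.79%), and it was lower than at day 16 in 15 genes (background 0.826%) and higher in 2. The fit on the 4 libraries alone called 7 of the rises and none of the falls, and 7 of the genes lower than at day 16. Without DAC replicate 2 of day 26, 3 of the falls were left. VCAM1, an adhesion molecule for leukocytes, had 199 and 209 CPM in DAC+BMN and 59.7 and 52.7 CPM in DAC (log2 fold change 1.86 ± 0.07 SE, adjusted p = 3.18e-19). The cytokine IL6 had 27.5 and 30.5 CPM in DAC+BMN and 11.6 and 11.3 CPM in DAC (log2 fold change 1.34 ± 0.12 SE, adjusted p = 1.06e-10), after 327 and 327 CPM with DAC+BMN and 43.7 and 41.1 CPM with DAC at day 16. The chemokine CCL5 had 91.6 and 95.8 CPM in DAC+BMN and 43.6 and 47.2 CPM in DAC (log2 fold change 1.05 ± 0.12 SE). IL11, a cytokine of the IL6 family, had 31.5 and 33.7 CPM in DAC+BMN and 11.2 and 13.3 CPM in DAC (log2 fold change 1.41 ± 0.11 SE). The genes that fell were LCN2, TNFAIP6, IL32, TNFAIP2, C3 and NFKBIZ, by 0.32 to 0.90 on the log2 scale. NFKBIA (0.15) and ICAM1 (0.11), which NF-kB induces in many cells, did not pass.

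Genes of the ERK pathway's immediate early and feedback arms were higher, with 19 of 36 raised and 1 lowered (FOSL2) and a median log2 fold change of 0.32. The fit on the 4 libraries alone called 11 of the rises. Growth factors of the EGF family were among them: EREG had 103 and 91.6 CPM in DAC+BMN and 36.9 and 31.2 CPM in DAC (log2 fold change 1.52 ± 0.09 SE, adjusted p = 2.06e-14), AREG rose by 1.71 ± 0.20 SE and TGFA by 0.62 ± 0.05 SE on the log2 scale. Feedback inhibitors of the pathway were also higher, with SPRY4 at 4.34 and 4.64 CPM in DAC+BMN and 0.607 and 0.448 CPM in DAC (log2 fold change 3.08 ± 0.29 SE) and the phosphatase DUSP6 at 3.04 and 3.36 CPM in DAC+BMN and 1.73 and 0.985 CPM in DAC (log2 fold change 1.24 ± 0.26 SE). The ETS factor ETV5 had 34.5 and 33.8 CPM in DAC+BMN and 15.4 and 16.4 CPM in DAC (log2 fold change 1.10 ± 0.11 SE). The immediate early genes FOS (0.19), EGR1 (-0.02), JUN (0.10) and MYC (-0.01) did not pass. EREG was already above this DAC level in untreated WT cells, at 54.1 and 52.6 CPM, and stood at 130 and 106 CPM with BMN alone at day 26. In KO cells EREG had 188 and 182 CPM in DAC+BMN and 68.2 and 69.2 CPM in DAC, and the difference of its effects between WT and KO was 0.09 ± 0.12 SE (adjusted p = 0.68).

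The largest rises included PEX5L, LINC02904, SCG5, SORCS2, PTX3, CYTIP, KLHDC7B, ANGPTL4, GJB2, WNT5B and HAS2, with log2 fold changes between 1.90 and 3.51. PEX5L, a relative of the peroxisomal import receptor PEX5, had 6.03 and 6.10 CPM in DAC+BMN and 0.654 and 0.403 CPM in DAC (log2 fold change 3.51 ± 0.27 SE, adjusted p = 7.91e-12). SCG5, a chaperone of prohormone convertase 2, had 17.8 and 18.1 CPM in DAC+BMN and 2.38 and 3.05 CPM in DAC (log2 fold change 2.72 ± 0.15 SE). GJB2, the gap junction protein connexin 26, had 39.2 and 43.1 CPM in DAC+BMN and 10.6 and 10.6 CPM in DAC (log2 fold change 1.96 ± 0.10 SE). No library of one treatment overlapped the other in these genes, which the rule that chose them required. PTX3, a soluble pattern recognition protein, had 8.22 and 9.02 CPM in DAC+BMN and 1.73 and 2.33 CPM in DAC (log2 fold change 2.08 ± 0.16 SE). HAS2, which makes hyaluronan, had 29.9 and 27.9 CPM in DAC+BMN and 8.13 and 7.39 CPM in DAC (log2 fold change 1.90 ± 0.21 SE). In KO cells at day 26 the log2 fold change was 0.70 for PTX3, -1.35 for HAS2 and -0.14 for GJB2, and that of GJB2 did not pass.

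The largest falls were in SMYD1, ALDH1A1, SLC2A2, SLC22A2, PCSK5, PTH1R, UGT2A3, CNN1, CHST9, WNT2B, CDH1 and ARHGAP6, with log2 fold changes between -2.26 and -4.51. ALDH1A1, a retinaldehyde dehydrogenase, had 49.2 and 47.0 CPM in DAC+BMN and 669 and 635 CPM in DAC (log2 fold change -3.76 ± 0.06 SE, adjusted p = 1.98e-30), which is 13.6-fold lower with the combination. PCSK5, a proprotein convertase, had 29.7 and 33.4 CPM in DAC+BMN and 203 and 213 CPM in DAC (log2 fold change -2.72 ± 0.08 SE). SMYD1, known as a muscle histone methyltransferase, had 0.747 and 0.575 CPM in DAC+BMN and 14.2 and 16.04 CPM in DAC (log2 fold change -4.51 ± 0.26 SE). In WT cells SMYD1 had 0.165 and 0 CPM with BMN alone at day 26 and 0.0504 and 0 CPM untreated, both under its level in DAC. ALDH1A1 followed another course: it stood at 831 and 789 CPM in untreated WT cells. At day 5 it had 101 and 94.2 CPM with DAC+BMN against 255 and 262 CPM with DAC, and at day 16 it had 3.34 and 3.86 CPM with DAC+BMN against 107 and 107 CPM with DAC. Both arms were thus lowest at day 16 and higher again at day 26, where DAC had come nearer to the untreated level than DAC+BMN.

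**Figure D3:**
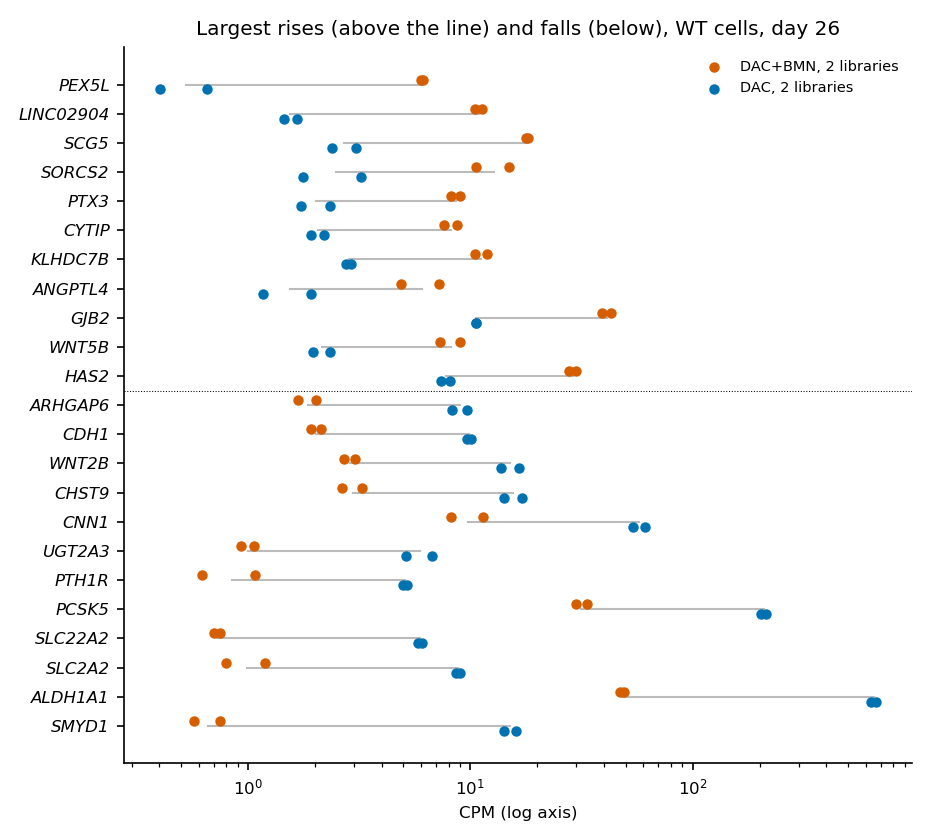
CPM on a log axis for 11 of the 12 genes with the largest rises (above the dotted line) and the 12 with the largest falls (below it) in WT cells at day 26; orange points are the 2 DAC+BMN libraries, blue points the 2 DAC libraries, and grey lines join the group means. The 2 libraries of each treatment lie close together beside the distance between treatments, as for ALDH1A1 at 49.2 and 47.0 CPM in DAC+BMN and 669 and 635 CPM in DAC. The rule that chose these genes required that the treatments not overlap.

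Renal tubule genes were lower with the combination. Of 25 tested, 11 fell and 2 rose, with a median log2 fold change of -0.70. CDH6, a cadherin of the proximal tubule, had 150.3 and 142.8 CPM in DAC+BMN and 387 and 348 CPM in DAC (log2 fold change -1.32 ± 0.07 SE, adjusted p = 2.71e-15). PDZK1, a scaffold for transporters of the brush border, had 39.6 and 39.6 CPM in DAC+BMN and 106 and 100.6 CPM in DAC (log2 fold change -1.39 ± 0.10 SE). PAX2, a transcription factor of the developing kidney, had 7.66 and 10.7 CPM in DAC+BMN and 20.9 and 27.2 CPM in DAC (log2 fold change -1.39 ± 0.14 SE). The tubule transcription factors PAX8 (-0.04) and HNF4A (-0.89) did not pass. The 2 that rose were the brush border peptidases ANPEP (log2 fold change 0.63) and MME (0.52). ACSM2A was at 0 in both DAC+BMN libraries and at 0.187 and 0.179 CPM in DAC, and it has a near-identical copy, ACSM2B, so no fold is given for it.

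CDH6 and PDZK1 were also lowest at day 16. PDZK1 stood at 146 and 137 CPM in untreated WT cells. It had 30.4 and 26.5 CPM with DAC+BMN and 59.8 and 61.5 CPM with DAC at day 5, and 2.51 and 2.61 CPM with DAC+BMN and 35.7 and 36.4 CPM with DAC at day 16. CDH6 stood at 602 and 532 CPM in untreated WT cells, and had 171 and 163 CPM with DAC+BMN and 233 and 242 CPM with DAC at day 5, 31.1 and 34.1 CPM with DAC+BMN and 113 and 113 CPM with DAC at day 16, and the day 26 values above. Its lowest level in either arm was thus at day 16. The effect of adding BMN was lower at day 26 than at day 5 in 10 tubule genes and higher in 1, and it was lower than at day 16 in 1 gene and higher in 3. The 10 became 6 in the fit on the compared libraries alone. Against KO cells at day 26, 11 tubule genes had a lower effect in WT (background 11.6%) and 3 a higher one. The 11 became 6 without KO DAC replicate 1, and 7 without WT DAC replicate 2 or in the fit on the compared libraries alone. CDH6 had 155 and 158 CPM in KO DAC+BMN and 174 and 174 CPM in KO DAC, a log2 fold change of -0.15 that did not pass, and the difference of the effects was -1.17 ± 0.10 SE (adjusted p = 1.58e-10).

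Cell adhesion genes gave a mixed picture, with 6 of 25 epithelial-mesenchymal genes higher and 7 lower. Not all of the 7 are named here. CDH6, given with the tubule genes, is also on this list and had a log2 fold change of -1.32. E-cadherin (CDH1) had 1.92 and 2.12 CPM in DAC+BMN and 9.62 and 10.1 CPM in DAC (log2 fold change -2.29 ± 0.21 SE), and the tight junction gene OCLN fell by 0.88 and the adhesion gene EPCAM by 0.57 on the log2 scale. N-cadherin (CDH2) had 540.5 and 518 CPM in DAC+BMN and 422 and 412 CPM in DAC (log2 fold change 0.34 ± 0.05 SE). ACTA2, VIM, SNAI2 and CDH11, used as mesenchymal markers, rose by 0.21 to 0.80, and so did CLDN1, an epithelial tight junction gene, by 0.77. ZEB1 (0.24) and SNAI1 (0.05) did not pass. On RLE size factors 4 rather than 7 of these genes were lower, and the fit on the 4 libraries alone called 1 rise and 2 falls.

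Sterol and fatty acid synthesis genes were lower, 24 of 34 falling and 1 rising (ELOVL6) with a median log2 fold change of -0.44. The fit on the 4 libraries alone called 9 of the falls. SCD, which puts the double bond into stearate, had 339 and 347 CPM in DAC+BMN and 957 and 975 CPM in DAC (log2 fold change -1.49 ± 0.05 SE, adjusted p = 1.91e-22). FASN, the fatty acid synthase, had 245 and 312 CPM in DAC+BMN and 533 and 726 CPM in DAC (log2 fold change -1.18 ± 0.13 SE). INSIG1, which holds the sterol-sensing complex in the endoplasmic reticulum, had 145 and 152 CPM in DAC+BMN and 262 and 244 CPM in DAC (log2 fold change -0.77 ± 0.06 SE). The transcription factors SREBF1 and SREBF2, which drive the pathway, fell by 0.65 and 0.57 on the log2 scale. ABCA1, a cholesterol exporter, also fell (515 and 511 CPM in DAC+BMN, 728 and 728 CPM in DAC).

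The sterol and fatty acid genes were lower on every WT day, 21 at day 5 (background 5.52%), 26 at day 16 (background 7.21%) and 24 at day 26. SCD had 1548 and 1575 CPM in untreated WT cells. It had 543 and 522 CPM with DAC+BMN and 1381 and 1358 CPM with DAC at day 5, and 133 and 131 CPM with DAC+BMN and 1041 and 1029 CPM with DAC at day 16. The log2 fold change of SCD was most negative at day 16, and its effect at day 26 was less negative than at day 16 by 1.48 ± 0.07 SE (adjusted p = 3.84e-17). Against day 16, 10 listed genes had a higher effect at day 26 than at day 16 and none a lower one, or 3 in the fit on the compared libraries alone. In KO cells at day 26, 14 of 34 genes rose (background 12.6%), or 8 without KO DAC replicate 1, and 1 fell. In the test of the difference 25 had a lower effect in WT than in KO while none had a higher one. SCD had 789 and 816 CPM in KO DAC+BMN and 585 and 612 CPM in KO DAC.

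**Figure D4:**
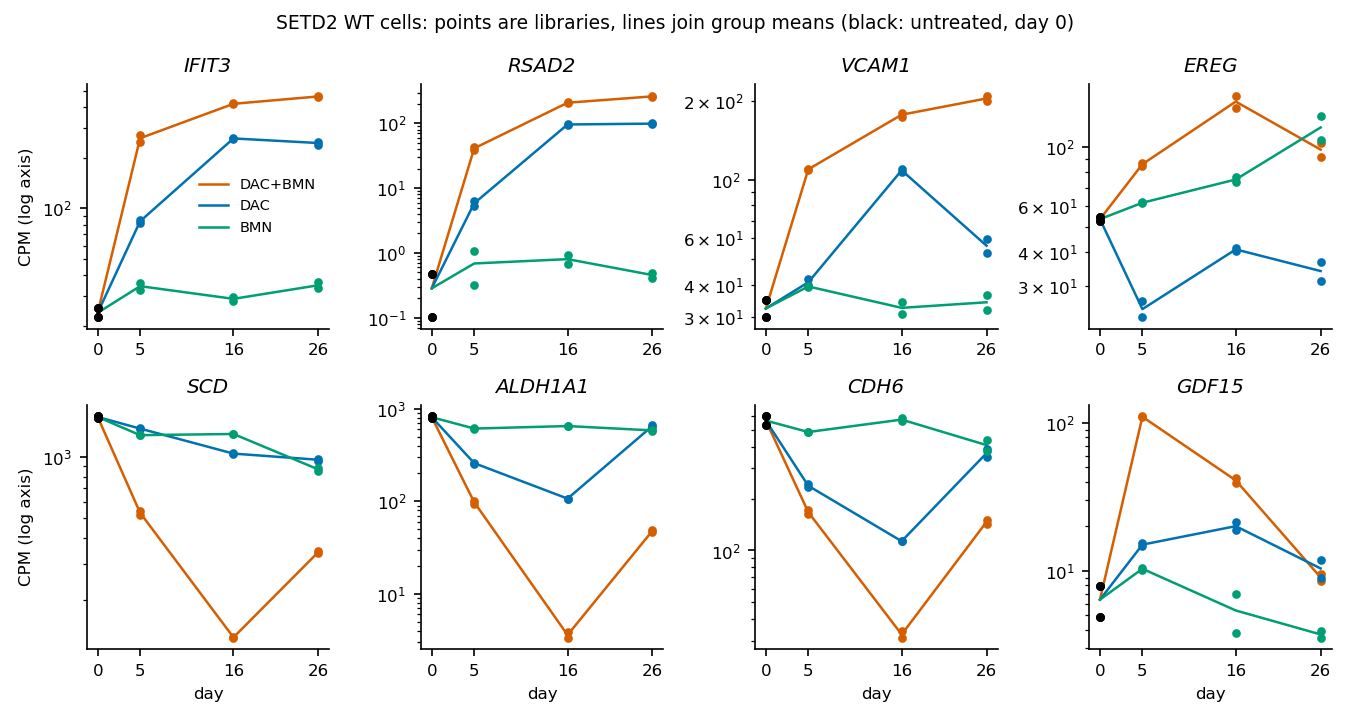
CPM on log axes for 8 genes in WT cells at days 0, 5, 16 and 26, with DAC+BMN in orange, DAC in blue, BMN in green and the untreated libraries at day 0 in black; points are libraries and lines join group means. The DAC+BMN line lies above DAC at day 26 for IFIT3, RSAD2, VCAM1 and EREG, below it for SCD, ALDH1A1 and CDH6, and beside it for GDF15.

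Extracellular matrix genes moved both ways, with 16 of 44 higher and 13 lower, or 5 and 7 in the fit on the 4 libraries alone. COL6A3, a chain of collagen VI, had 1299 and 1370 CPM in DAC+BMN and 560.2 and 592 CPM in DAC (log2 fold change 1.21 ± 0.06 SE, adjusted p = 3.54e-16). FBN1, the microfibril protein fibrillin, had 106 and 99.5 CPM in DAC+BMN and 44.5 and 43.6 CPM in DAC (log2 fold change 1.22 ± 0.08 SE). The basement membrane collagens went the other way, COL4A1 having 272 and 301 CPM in DAC+BMN and 470 and 517 CPM in DAC (log2 fold change -0.78 ± 0.06 SE) and COL4A2 falling by 0.63. Among proteases, MMP9 and MMP1 rose by 1.70 and 1.38 and MMP7 fell by 2.60 on the log2 scale, each at under 5 CPM. Relative to day 16, 17 matrix genes had a higher effect at day 26 and none a lower one. The 17 became 10 without DAC+BMN replicate 2 of day 26 or of day 16, 11 without DAC+BMN or DAC replicate 1 of day 16, and 9 in the fit on the compared libraries alone. COL3A1 shows this: at day 16 it had 1.88 and 2.06 CPM with DAC+BMN and 15.9 and 16.2 CPM with DAC, and at day 26 it had 18.1 and 18.5 CPM with DAC+BMN and 24.99 and 28.9 CPM with DAC.

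Targets of hypoxia-inducible factors were more often higher than lower, with 13 of 33 raised and 2 lowered (PFKFB3 and MXI1). The fit on the 4 libraries alone called 8 of the rises. CCND1, the cyclin of G1 phase, had 577 and 631 CPM in DAC+BMN and 365 and 374 CPM in DAC (log2 fold change 0.71 ± 0.05 SE, adjusted p = 2.93e-12). The angiogenic factor VEGFA had 313 and 365 CPM in DAC+BMN and 191 and 226 CPM in DAC (log2 fold change 0.70 ± 0.07 SE). The glucose transporter SLC2A3 had 40.5 and 37.2 CPM in DAC+BMN and 19.7 and 17.6 CPM in DAC (log2 fold change 1.06 ± 0.10 SE), and the hexokinase HK2 had 78.6 and 88.6 CPM in DAC+BMN and 49.5 and 45.1 CPM in DAC. Glycolytic genes of the same list, ENO1 (-0.06), PGK1 (0.04) and ALDOA (-0.28), did not pass.

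Of 34 p53 targets 4 rose and 8 fell at day 26, against a background of 5.07% higher and 7.12% lower, and the median log2 fold change was -0.03. PMAIP1 (NOXA), which promotes apoptosis, had 35.3 and 31.2 CPM in DAC+BMN and 20.6 and 18.4 CPM in DAC (log2 fold change 0.77 ± 0.13 SE), and GADD45A had 56.3 and 62.6 CPM in DAC+BMN and 39.7 and 40.7 CPM in DAC. PPM1D, a phosphatase that restrains p53, had 26.5 and 27.9 CPM in DAC+BMN and 39.7 and 38.4 CPM in DAC (log2 fold change -0.52 ± 0.10 SE). CDKN1A (p21) had 114 and 132 CPM in DAC+BMN and 101 and 116 CPM in DAC, which overlap (adjusted p = 0.181), and MDM2 did not pass either. Of the 8 falls, between 3 and 5 were left when any 1 of the 4 libraries was left out, while the fit on the 4 libraries alone called 2 rises and no fall. At day 5, 24 of these genes rose and 1 fell, and the effect at day 26 was lower than at day 5 in 20 and higher in none, or 10 in the fit on the compared libraries alone. GDF15, a stress cytokine, had 109 and 111 CPM with DAC+BMN and 15.4 and 14.7 CPM with DAC at day 5, and 8.50 and 9.55 CPM with DAC+BMN and 8.97 and 11.8 CPM with DAC at day 26.

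Of 45 homologous recombination and Fanconi genes 3 rose (CHEK1, CHEK2 and FANCD2) and 2 fell (FANCC and RAD51C). Of 32 PARP and single-strand break repair genes only MPG passed, with a fall, and of 46 replication genes 4 rose and 2 fell. CHEK1, FANCD2, FANCC, RAD51C and MPG did not pass in the fit on the 4 libraries alone. MPG also did not pass on RLE size factors, nor did RAD51C without the filter on low counts. The replication rises numbered 1 without DAC+BMN replicate 1, 2 without DAC+BMN replicate 2 or DAC replicate 2, 7 in DESeq2 and 0 in the fit on the 4 libraries alone. FANCD2, the Fanconi protein that is ubiquitinated at stalled forks, had 108 and 109 CPM in DAC+BMN and 93.2 and 88.5 CPM in DAC (log2 fold change 0.25 ± 0.06 SE, adjusted p = 0.00262). CHEK1, the replication checkpoint kinase, had 52.9 and 49.0 CPM in DAC+BMN and 40.9 and 39.5 CPM in DAC (log2 fold change 0.34 ± 0.09 SE). Of 44 mitosis genes KIF4A and PTTG1 rose, by 0.41 and 0.30 on the log2 scale, and MKI67 (-0.06) and CCNB1 (0.08) did not pass. Neither KIF4A nor PTTG1 passed in the fit on the 4 libraries alone. The background for calls in either direction was 12.2%. In KO cells at day 26, 24 replication genes and 22 mitosis genes rose (background 12.6%), and 12 and 14 had a lower effect in WT than in KO (background 11.6%). Without KO DAC replicate 1 the KO rises in replication genes numbered 15. The 12 became 7 without WT DAC+BMN replicate 1 or WT DAC replicate 2, the 14 became 9 without WT DAC+BMN replicate 1, KO DAC+BMN replicate 2 or KO DAC replicate 1, and the fit on the compared libraries alone gave 6 and 5.

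The DNA methylation machinery was lower in 8 of 21 genes and higher in 2 (GADD45A and UHRF2), and 1 of the falls passed in the fit on the 4 libraries alone and 5 without DAC+BMN replicate 1 or DAC replicate 2. DNMT3A, a de novo methyltransferase, had 8.97 and 10.7 CPM in DAC+BMN and 15.5 and 15.4 CPM in DAC (log2 fold change -0.65 ± 0.13 SE, adjusted p = 0.000698). ZBTB38, a reader of methylated DNA, had 153 and 159 CPM in DAC+BMN and 222 and 209.6 CPM in DAC (log2 fold change -0.47 ± 0.05 SE). The oxidase TET3 had 40.3 and 42.2 CPM in DAC+BMN and 52.8 and 57.6 CPM in DAC (log2 fold change -0.42 ± 0.07 SE). DNMT3B fell by 0.31 on the log2 scale (37.5 and 41.2 CPM in DAC+BMN, 46.2 and 51.2 CPM in DAC, adjusted p = 0.0297), a call lost without replicate 1 of DAC+BMN or replicate 2 of DAC, on RLE size factors, without a filter on low counts and in the fit on the 4 libraries alone. UHRF1, which guides DNMT1 to replicated DNA, did not pass (log2 fold change -0.13). Among 25 genes of histone H3 lysine 36 methylation only ASH1L passed, with a fall of 0.21, and it did not pass on RLE size factors, without the filter, in the fit on the 4 libraries alone or with any 1 of the 4 libraries left out.

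Germline genes are silenced by DNA methylation in somatic cells. Of 46 cancer-testis and germline genes 9 fell and 1 rose (SSX1), with a median log2 fold change of -0.12. Between 3 and 5 of the falls were left without DAC replicate 2 or either DAC+BMN library, and 2 in the fit on the 4 libraries alone. MAEL, a piRNA pathway gene, had 4.998 and 3.05 CPM in DAC+BMN and 10.04 and 8.60 CPM in DAC (log2 fold change -1.22 ± 0.17 SE, adjusted p = 1.88e-06), against at most 0.453 CPM in untreated WT cells. TDRD9, a helicase of the same pathway, had 3.83 and 4.33 CPM in DAC+BMN and 8.36 and 8.78 CPM in DAC (log2 fold change -1.07 ± 0.19 SE) and was at 0 in untreated WT cells. The MAGE, GAGE and SSX genes have near-identical copies and their values are uncertain. In KO cells 32 of the 46 fell (background 11.3%, median log2 fold change -1.34), and 25 had a higher effect in WT than in KO while none had a lower one. Of 22 retrovirus- and retrotransposon-derived genes, RTL3 (log2 fold change 1.42), PNMA2 (0.70) and PEG10 (0.23) rose and PGBD5 fell by 1.00; reads from the repeats themselves were not counted.

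Genes that handle nucleosides and drugs included NT5E (CD73), which turns AMP into adenosine, at 156 and 160.5 CPM in DAC+BMN and 47.7 and 41.4 CPM in DAC (log2 fold change 1.83 ± 0.07 SE, adjusted p = 6.34e-19). The efflux pumps ABCB1 (14.1 and 14.4 CPM in DAC+BMN, 27.7 and 27.4 CPM in DAC), ABCC2, ABCC4 and ABCC1 fell by 0.27 to 1.14 on the log2 scale and ABCC3 rose by 0.28. DCK, the kinase that activates decitabine (-0.14), and CDA, the deaminase that inactivates it (0.06), did not pass. Of this list of 32 genes 7 rose and 4 fell, or 1 and 2 in the fit on the 4 libraries alone, and 3 rises were left without DAC+BMN replicate 2.

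Stress and death genes were counted against a background of 5.07% higher and 7.12% lower. The integrated stress response gave 10 rises and 4 falls in 38 genes, and NRF2 targets 4 rises and 9 falls in 28. Cell death and senescence genes gave 5 rises and 6 falls in 36. The fit on the 4 libraries alone gave 2 rises and 1 fall in the first list, 0 rises and 4 falls in NRF2 targets and 2 rises in cell death genes. Without DAC+BMN replicate 2 the stress response rises numbered 6, and its falls numbered 1 without DAC+BMN replicate 1 and 2 without DAC replicate 2 or the filter on low counts. The NRF2 rises numbered 2 without either DAC+BMN library or DAC replicate 1. STC2, a secreted glycoprotein, had 107 and 113 CPM in DAC+BMN and 59.0 and 53.1 CPM in DAC (log2 fold change 0.98 ± 0.07 SE), whereas ATF4 (-0.03), the main factor of that response, did not pass. AKR1B1, an aldose reductase, had 1125 and 1170.0 CPM in DAC+BMN and 1670.0 and 1817 CPM in DAC (log2 fold change -0.60 ± 0.05 SE). The anti-apoptotic gene BCL2 had 2.66 and 2.78 CPM in DAC+BMN and 9.11 and 8.56 CPM in DAC (log2 fold change -1.69 ± 0.20 SE), and BCL2L11 (BIM), which opposes it, fell by 0.71. IGFBP3, a carrier of insulin-like growth factors, had 987 and 1020.0 CPM in DAC+BMN and 1520.0 and 1523 CPM in DAC. Of 60 ribosomal protein genes 1 rose and 2 fell, while 54 rose in KO cells (background 12.6%).

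The WT comparisons at days 5 and 16 share no library with that at day 26. With day 16, 1338 genes passed in the same direction, which is 48.7% of the day 26 calls and 48.5% of the day 16 calls, and 33 passed in opposite directions. With day 5 the same-direction count was 937, or 34.1% of the day 26 calls and 33.8% of the day 5 calls, and 130 were opposite. A direct test found 1480 genes (6.57%) whose effect differed between days 26 and 5, of which 1076 were lower at day 26, and 536 genes (2.38%) whose effect differed between days 26 and 16, of which 350 were higher at day 26.

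At day 26 in WT and KO cells 492 genes passed in the same direction, 17.9% of the WT calls and 9.13% of the KO calls, while 741 passed in opposite directions, 27.0% of the WT calls and 13.8% of the KO calls. KO cells gave 5389 calls in all (23.9%). The difference between the lines was itself past the threshold for 4764 genes (21.1%), 2143 with a higher effect in WT and 2621 with a lower one. ALDH1A1 had the most negative difference among the genes that the naming rule takes, at -4.83 ± 0.09 SE on the log2 scale (adjusted p = 2.23e-29): KO cells had 76.8 and 75.5 CPM in DAC+BMN and 35.96 and 36.6 CPM in DAC. COL6A3 had 1299 and 1370 CPM in WT DAC+BMN and 560.2 and 592 CPM in WT DAC, and in KO cells 213 and 213 CPM in DAC+BMN and 503 and 525 CPM in DAC.

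**Figure D5:**
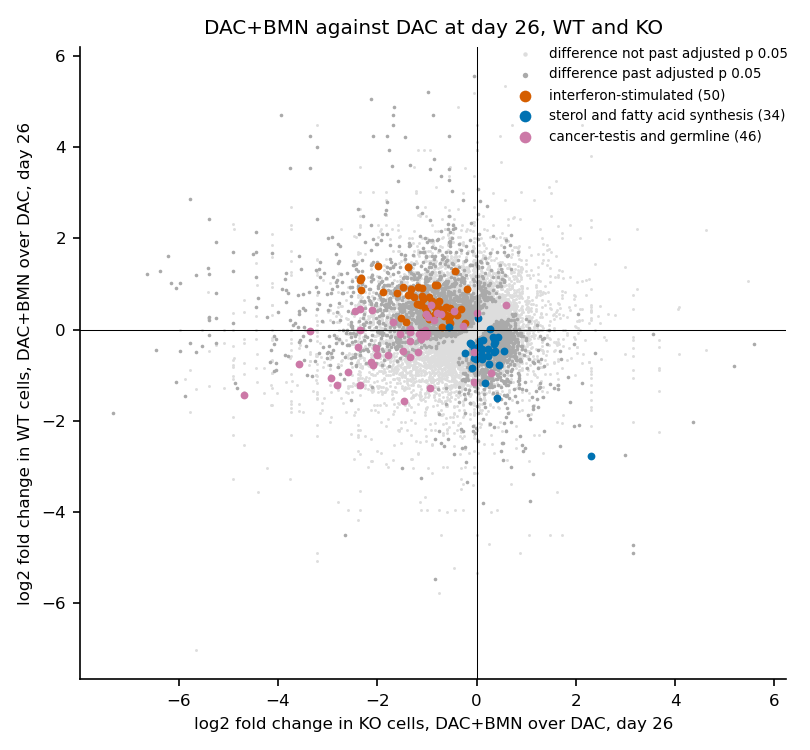
Each point is a tested gene, with the log2 fold change of DAC+BMN over DAC at day 26 in KO cells on the horizontal axis and in WT cells on the vertical axis; dark grey points differ between the lines at an adjusted p below 0.05, and coloured points are members of 3 lists. Interferon-stimulated genes fill the upper left, with medians of 0.56 in WT and -0.96 in KO, and most sterol and fatty acid genes lie below 0 in WT and at or above 0 in KO.

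BMN alone was set against untreated cells only across time, since untreated cells were sampled at day 0. WT cells with BMN at day 26 differed from WT cells at day 0 in 5188 genes (23.0%), and 723 of these moved in the same direction as under the addition of BMN to DAC, 26.3% of the day 26 calls and 13.9% of the BMN calls, while 359 moved in the opposite direction. Of the interferon-stimulated genes 8 rose and 9 fell with BMN alone, and the count of rises was 2 without BMN replicate 1 and 3 without untreated replicate 2. Over all 22527 tested genes, 2704 were higher and 2484 lower with BMN alone. IFIT3 and IFIT2 were among the rises, with log2 fold changes of 0.55 ± 0.08 SE and 0.39 ± 0.10 SE. In the fit on the compared libraries alone, 0 interferon-stimulated genes rose. RSAD2 and MX2 did not pass. MX2 had 0.551 and 0.569 CPM with BMN alone at day 26 and 0.806 and 0.570 CPM in untreated cells, while DAC+BMN gave 255 and 247 CPM and DAC 141 and 145 CPM. Of 45 homologous recombination genes 18 rose and 1 fell with BMN alone, and the rises numbered 5 without BMN replicate 1, 6 without untreated replicate 2 and 0 in the fit on the compared libraries alone. In a fit on these 4 libraries alone 362 genes passed, and between 2103 and 6146 passed with 1 of them left out, the lowest without untreated replicate 2.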

How the data were processed

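The deposited table holds raw counts per gene of 40 RNA-seq libraries, made by the authors with featureCounts 1.5.0-p1, strand setting 1, duplicates ignored, on Ensembl annotation of GRCh38, per the file headers. Per the labels' protocols the library kit was KAPA RNA HyperPrep on total RNA. The submitters' processing notes name FastQC, Trimmomatic and Partek. The table lists 60664 genes, 42028 of them with a symbol; its 37 mitochondrial genes are all at 0. Every column was matched to its sample through the labels.

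Here, genes were kept by filterByExpr (minimum count 10, minimum total 15), and 22527 passed. With TMM scaling, edgeR 4.0.16 (R 4.3.3) fitted its quasi-likelihood model to the 40 libraries together, with 1 coefficient for each of 20 groups and 20 residual degrees of freedom. All groups entered the fit because 2 libraries a group give a poor estimate of the spread. P-values were adjusted by Benjamini-Hochberg over all genes within each contrast, with a threshold of 0.05. CPM use TMM-scaled library sizes, and SE is that of the log2 fold change. Differences between days or lines were tested as contrasts of contrasts. On simulated counts for the day 26 comparison over 22527 genes, 59.7% of 1.5-fold, 88.1% of 2-fold and 100% of 4-fold changes were recovered. In that simulation 10 unchanged genes were also called. The changed genes were drawn from those expressed in DAC, and the counts followed the fitted dispersion trend. The recovery therefore holds only where the model's own assumptions do.

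The members and the 28 gene lists were chosen with earlier results of these data known. Named genes are the targeted genes, the 12 largest rises and falls (at least 3 counts in each library, 5 CPM in the higher group, no overlap), up to 4 called members of each list by smallest p and any member of the interferon, p53, PARP and cell cycle lists, and the 5 largest differences each way; other members of lists were named after their values were seen. A gene at 0 allows up to 3 counts, 0.133 to 0.146 CPM in these libraries, and such floors cover counting error only. Alternatives were DESeq2 1.42.0, RLE size factors, no filter, fits on the compared libraries alone, a replicate block and each library left out. A few genes are not reported here.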

Additional observations from a re-analysis of the deposited data

Results flagged for a closer look

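The results below were singled out because the effect of adding BMN to DAC differed between days or lines by a direct test in edgeR's quasi-likelihood fit at an adjusted p below 0.05. The effect at day 26 in WT cells differed from that at day 5 in 1480 genes, from that at day 16 in 536 genes and from that of KO cells at day 26 in 4764 genes.

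By list, 45 of 50 interferon-stimulated genes and 20 of 34 p53 targets had a lower effect at day 26 than at day 5. So did 10 of 25 renal tubule genes, against 4.78% of all tested genes. Against day 16, 15 of 39 cytokine and NF-kB genes had a lower effect at day 26 (0.826% of all genes). A higher one was found in 10 of 34 sterol and fatty acid genes and 17 of 44 matrix genes (1.55% of all genes). Against KO cells, 48 of 50 interferon-stimulated genes and 25 of 46 germline genes had a higher effect in WT (9.51% of all genes). A lower one was found in 25 of 34 sterol and fatty acid genes and 11 of 25 renal tubule genes (11.6% of all genes). In fits on the compared libraries alone, the 20 became 10 and the 10 tubule genes 6. There the 15 became 7, the 10 sterol genes 3, the 17 became 9 and the 11 became 7. The counts for matrix genes against day 16 and for tubule genes against KO cells moved by over 1.5 times with 1 library left out, as given with those lists.

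The genes with the largest differences are given as log2 differences of the effects. Between days 26 and 5, PEX5L (3.06), POU3F3 (2.035), CCNA1 (1.96), APOA4 (1.95) and SORCS2 (1.92) had a higher effect at day 26, and LRG1 (-3.89), UGT2A3 (-3.58), SLC22A2 (-3.435), RN7SL471P (-3.15) and GDF15 (-3.07) a lower one. RN7SL471P is a copy of the 7SL RNA and its value is uncertain. LRG1 had only 1 and 3 counts in DAC+BMN and 21 and 24 counts in DAC at day 26. Between days 26 and 16, ADAMTS15 (2.98), CNN1 (2.655), COL3A1 (2.46), PDZK1 (2.43) and IGFL2-AS1 (2.27) had a higher effect at day 26. TNFRSF1B (-2.78), POU2F2 (-2.56), IL1B (-2.46), SYT7 (-2.28) and ABCC9 (-1.88) had a lower one. Of these, TNFRSF1B, POU2F2, IL1B and SYT7 had group means of at most 0.862 CPM at day 26 and did not pass there. Between WT and KO cells, B4GALNT2 (5.51), LINC02904 (4.60), WNT5B (4.16), PEX5L (4.06) and TFAP2C (3.89) had a higher effect in WT. ALDH1A1 (-4.83), BCL2 (-2.93), HOGA1 (-2.91), SHISA2 (-2.855) and ZBED3 (-2.60) had a lower one. The B4GALNT2 difference had an SE of 1.59. Its log2 fold change was 0.26 in WT cells, which did not pass, and -5.25 ± 1.57 SE in KO cells.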

How the results depend on the processing

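Fits on the libraries of the compared groups alone called 325 higher and 387 lower genes at day 26 in WT cells, 362 for BMN alone against untreated cells, and 559, 147 and 2998 for the differences to day 5, day 16 and KO cells. With 1 library left out, between 748 and 1105 genes were higher and between 956 and 1742 lower at day 26, with the lowest counts without DAC+BMN replicate 2 and replicate 1. The ranges were 1574 to 1968 at day 5, 1809 to 1933 at day 16, 3468 to 3896 in KO cells, 2103 to 6146 for BMN alone, 909 to 2095 and 313 to 591 for the differences to days 5 and 16, and 3660 to 4889 for that to KO cells; a lone library is there assumed to vary like the other groups. DESeq2 (1282 higher, 1394 lower), RLE size factors (1283, 1397) and no filter (1055, 1460) stayed within 1.5 times. Same-numbered libraries of the 2 treatments deviated together with a correlation of 0.195 at day 26. Over pairs of the 20 groups this correlation ran from -0.174 to 0.237, with a median of 0. The numbers were not taken as pairs. The replicate block was 1 term shared by all 20 groups, so it could not test pairing within day 26. It gave 1137 higher and 1607 lower genes and changed the call of none of the 136 named genes. Of those genes, 39 no longer passed in the fit on the compared libraries alone, 6 on RLE size factors and 5 without a filter. Some also no longer passed with a library left out. Among genes that passed in the main fit or in the alternative, none changed sign. Signs of genes that passed in neither were not compared. The cause of these changes was not tested.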

Other observations

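Genes outside the lists and the naming rule also moved at day 26 in WT cells, and those given here were chosen after their values were seen. CD274 (PD-L1), a ligand that restrains T cells, had 29.7 and 29.4 CPM in DAC+BMN and 12.1 and 11.8 CPM in DAC (log2 fold change 1.31 ± 0.10 SE, adjusted p = 7.39e-12 in edgeR). Its relative PDCD1LG2 (PD-L2) had 15.8 and 16.3 CPM in DAC+BMN and 6.40 and 5.46 CPM in DAC (log2 fold change 1.44 ± 0.15 SE). The coagulation initiator F3 had 246 and 241 CPM in DAC+BMN and 110.2 and 103 CPM in DAC, and the activin subunit INHBA had 315 and 321 CPM in DAC+BMN and 128.0 and 114 CPM in DAC. TGM2, a transglutaminase, had 413 and 466 CPM in DAC+BMN and 141 and 178 CPM in DAC. The HIF1A transcript had 90.9 and 89.8 CPM in DAC+BMN and 53.8 and 49.2 CPM in DAC, and its protein was not measured.

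The genes given next were lower. DHRS3, a retinaldehyde reductase, had 35.3 and 36.8 CPM in DAC+BMN and 81.3 and 90.2 CPM in DAC (log2 fold change -1.25). CRABP2, which carries retinoic acid, had 15.6 and 15.4 CPM in DAC+BMN and 33.6 and 42.2 CPM in DAC (log2 fold change -1.29). GFRA1, a receptor subunit for GDNF, had 89.5 and 87.0 CPM in DAC+BMN and 371 and 357 CPM in DAC (log2 fold change -2.04), while its log2 fold change in KO cells was 0.56 and the difference of the effects -2.60.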
